A study of Mus musculus with 9 samples.

Results

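The homeostatic microglia genes followed here are 9 of the 31053 genes listed for each nucleus: P2ry12, P2ry13, Gpr34, Cx3cr1, Csf1r, Tmem119, Siglech, Selplg and Sall1. They were found by symbol and read in the microglia class, which was named by 5 other genes (Inpp5d, Apbb1ip, Ctss, Runx1 and Ikzf1) after clustering from which the 9 were left out. That class held 1889 of the 70224 nuclei kept. All 9 samples came from wild-type male C57BL/6 mice and held cortex and hippocampus pooled, from which stained singlet nuclei were sorted. All animals had received an adeno-associated virus (AAV) by retro-orbital injection 8 weeks before the tissue was taken, with a capsid that favours brain vessels and a short Cldn5 promoter meant to restrict expression to endothelial cells. The 3 groups of 3 samples were young AAV-EGFP (5 months), aged AAV-EGFP (19 months) and aged AAV-B3GNT3 (19 months), where EGFP is the control protein and B3GNT3 a glycosyltransferase that lengthens O-glycans of the mucin type. Every mouse carried a vector, so no group shows these genes without AAV.

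Microglia are the resident macrophages of brain tissue. In the surveillant state they carry a set of surface receptors that read nucleotides, chemokines and growth factors from neighbouring cells, and this set is often lowered when microglia turn to a phagocytic, lipid-handling state. P2RY12 senses ADP and steers processes toward injury, CX3CR1 reads the neuronal chemokine CX3CL1, CSF1R keeps the cells alive through CSF1 and IL34, and SALL1 is a zinc-finger repressor that holds microglial identity.

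Libraries held 47332047 to 79964605 unique molecular identifiers (UMIs, each 1 captured RNA molecule), and 7 to 37 barcodes were shared by each of the 36 pairs of libraries. The microglia class had 5 of 5 selection genes among its markers and 108 to 326 nuclei per sample, with 252056 to 524827 UMIs per sample in all. The median depth per microglial nucleus was 1831, 1844 and 2105.5 UMIs in young AAV-EGFP replicates 1, 2 and 3. It was 1353, 1259 and 1573 in aged AAV-EGFP and 1821, 1537.5 and 2066.5 in aged AAV-B3GNT3. Every aged AAV-EGFP sample was thus below every young AAV-EGFP sample, so depth and age group cannot be told apart there. Aged AAV-EGFP and aged AAV-B3GNT3 samples overlapped. Between 0 and 2.93% of microglial nuclei per sample held no UMI of any of the 9 genes. As a check of the target, mouse B3gnt3 gave 0 to 4 UMIs per sample in aged AAV-B3GNT3 endothelial nuclei, 0 in each aged AAV-EGFP sample and 8, 3 and 1 in young AAV-EGFP replicates 1, 2 and 3. Such counts are too few for a check, and whether reads of the vector's transgene were assigned to this gene is not given in the sources used here.

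P2ry12 lies on chromosome 3 (GRCm38, 59216272 to 59262871, minus strand) and P2ry13, another ADP receptor gene, lies close by at 59207892 to 59210882 on the same strand. Both sit inside Med12l, a mediator-complex gene that runs along the opposite strand from 59005825 to 59318682. Siglech, the gene of a sialic-acid-binding lectin, lies on chromosome 7 (55768178 to 55778925, plus strand). The 250 bases ahead of the RefSeq start are shown for these 3 genes, because P2ry12 was the member that passed the test described further on, P2ry13 is its neighbour, and Siglech was the member whose level moved most closely with P2ry12 over the 9 samples (Pearson's r = 0.83, a description over samples that share a tissue and a workflow). They are from RefSeq's annotation of GRCm38.p6 and read 5′ to 3′ on each gene's own strand. Capitals mark the core of ETS-family sites, the motif bound by the myeloid factor PU.1 and its relatives, searched as GGAAGT on both strands.
P2ry12, chr3:59262986-59263235, minus strand: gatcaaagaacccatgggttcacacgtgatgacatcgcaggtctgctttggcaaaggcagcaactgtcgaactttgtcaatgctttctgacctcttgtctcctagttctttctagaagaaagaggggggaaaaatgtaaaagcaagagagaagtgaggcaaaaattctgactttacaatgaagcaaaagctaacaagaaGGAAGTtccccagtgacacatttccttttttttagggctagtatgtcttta
P2ry13, chr3:59210883-59211132, minus strand: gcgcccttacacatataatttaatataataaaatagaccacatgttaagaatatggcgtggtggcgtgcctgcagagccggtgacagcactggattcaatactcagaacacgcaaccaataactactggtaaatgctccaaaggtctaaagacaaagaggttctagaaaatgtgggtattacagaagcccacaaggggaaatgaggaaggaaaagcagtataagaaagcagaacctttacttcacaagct
Siglech, chr7:55767934-55768183, plus strand: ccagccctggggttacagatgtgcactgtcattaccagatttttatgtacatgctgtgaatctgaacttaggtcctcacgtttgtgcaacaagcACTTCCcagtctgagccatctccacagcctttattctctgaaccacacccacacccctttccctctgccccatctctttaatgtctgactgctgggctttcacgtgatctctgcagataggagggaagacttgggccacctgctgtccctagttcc

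P2ry12 had 1 such core whose first base is at position -51 from the RefSeq start, Siglech had 1 on the other strand (ACTTCC) at -156, and P2ry13 had 0. Over 32536 RefSeq promoters, 19.8% held GGAAGT on either strand in a window of the same length, so a single match says little about a gene. The AP-1 motif TGANTCA, held by 6.73% of those windows and not overlapping GGAAGT, was in none of the 3. Among the other members, Sall1 had GGAAGT at -180 of 1 of its 3 listed starts and Cx3cr1 had 0. A match describes the letters of the window and does not show a bound site. Tmem119, Csf1r, Selplg and Gpr34 were not searched.

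The 9 genes were first read across classes of nuclei, to see how far each one marks microglia in these data. Levels are given as counts per 1000000 UMIs of a class (CPM), averaged over the 9 samples. P2ry12 stood at 934.5 CPM in microglia, and the next named class, astrocytes, had 23.3 CPM. Siglech stood at 847.6 CPM in microglia and 8.74 CPM in the next named class, pericytes. Selplg, the gene of the selectin ligand PSGL-1, stood at 669.8 CPM against 4.33 CPM in pericytes. Microglia held the highest level of all 9 genes, and in each of the 9 samples the microglial level of every gene was above the level of every other named class.

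The share of the summed class means that microglia took measures how specific a gene was over the 8 named classes. A cluster with macrophage markers, described below, was left out of these classes. It stood above all of them but microglia for each of the 9 genes, with 265.2 CPM for P2ry12 and 197.3 CPM for Csf1r. The shares therefore do not set microglia apart from macrophages. The share was 98.14% for Siglech, 98.05% for Selplg, 97.74% for Csf1r and 96.24% for Tmem119, the gene of a microglial membrane protein of unsettled function. Lower shares were found for Gpr34 at 92.59%, Cx3cr1 at 91.95%, P2ry12 at 90.48% and P2ry13 at 90.16%. Sall1 was lowest at 77.89%, with 27.7 CPM in astrocytes and 21.3 CPM in oligodendrocytes, while excitatory neurons had 0.731 CPM. By the same measure, the genes with a microglial level of at least 50 CPM that were most confined to microglia were Gm2245, Arhgap30, Gm43821, Nlrp1b and Cd48, at 98.89 to 99.16%.

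**Figure D1:**
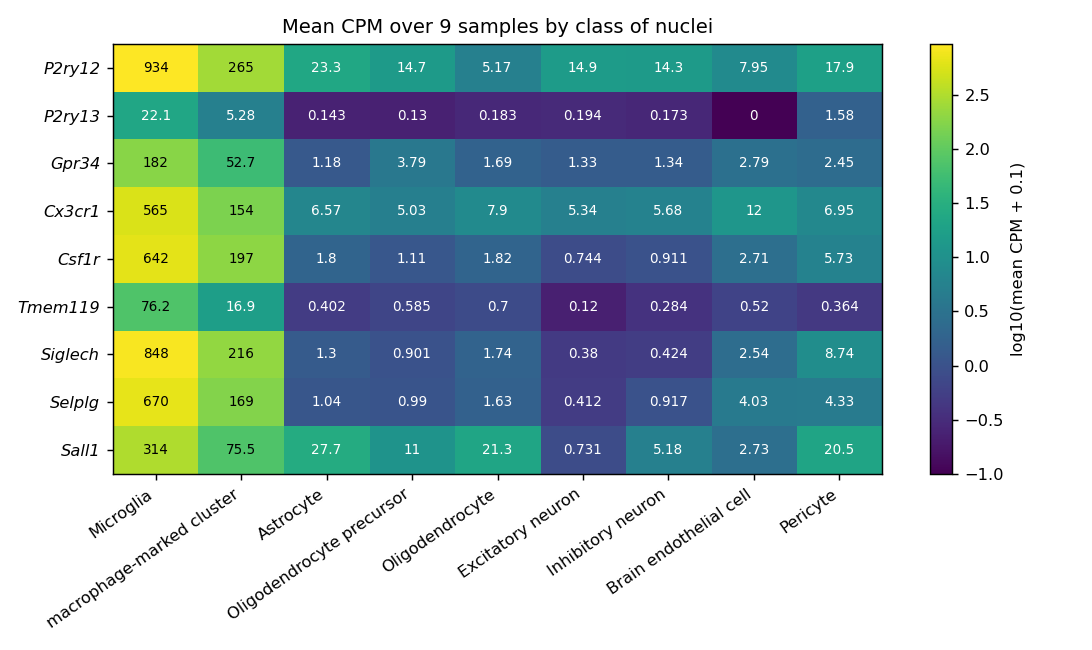
Mean level of each homeostatic gene in each class of nuclei, as CPM over the 9 samples, with colour on a log10 scale and the CPM written in each cell. Microglia hold the highest value of every row, 22.1 CPM for P2ry13 to 934.5 CPM for P2ry12, and P2ry12, Cx3cr1 and Sall1 keep the broadest low signal outside microglia.

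A high level in few nuclei did not mean that most UMIs of a gene came from microglia. Only 29.85% of P2ry12 UMIs, 24.91% of Sall1 UMIs and 35.83% of Cx3cr1 UMIs were in the microglia class, against 68.83% of those of Siglech and 66.19% of those of Selplg. P2ry12 had 58.56% of its UMIs outside both microglia and a neighbouring macrophage-marked cluster, and Siglech 7.27%. The levels outside microglia did not keep 1 ratio between genes. P2ry12 stood at 14.95 CPM in excitatory neurons, 23.3 CPM in astrocytes and 5.17 CPM in oligodendrocytes, where Siglech stood at 0.380, 1.30 and 1.74 CPM.

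Overlapping genes bear on this reading, because whether the counting used the strand is not given in the sources used here, and without strand reads of P2ry12 and Med12l could not be told apart. Med12l stood at 264.6 CPM in excitatory neurons and 300.1 CPM in microglia on average. Gpr34, a receptor for lysophosphatidylserine, lies inside Cask (chromosome X, 13632089 to 13640858, plus strand) on the strand opposite to it. Cx3cr1 (chromosome 9, 119901616 to 120069879, minus strand) overlaps 9 other genes, which comes from a long span in its annotation. Csf1r (chromosome 18, 61100598 to 61132149, plus strand) overlaps Mir6983 and the end of Hmgxb3. Tmem119 (chromosome 5, 113793729 to 113800516, minus strand), Selplg (chromosome 5, 113818536 to 113832644, minus strand), Siglech and Sall1 (chromosome 8, 89027235 to 89044162, minus strand) overlap no other annotated gene.

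An unnamed cluster of 942 nuclei carried macrophage markers beside microglial ones and was kept out of the microglia class. Of its nuclei, 696 held no macrophage UMI. Young AAV-EGFP replicates 1, 2 and 3 contributed 37, 157 and 107 of the 942, beside 202, 143 and 108 microglia-class nuclei. Aged AAV-EGFP contributed 144, 140 and 46, beside 196, 239 and 241. Aged AAV-B3GNT3 contributed 70, 114 and 127, beside 220, 326 and 214. The part kept out thus differed between replicates, also within the age comparison below, where P2ry12 lost its call with the cluster added. At a finer resolution 298 nuclei formed a cluster with macrophage markers, and 654 formed one with oligodendrocyte markers beside microglial ones, a median of 5069 UMIs and a mean doublet score of 0.105. In the cluster of 942, levels were lower than in the microglia class for every one of the 9 genes, with 265.2 CPM for P2ry12, 197.3 CPM for Csf1r and 75.5 CPM for Sall1. Within it, the 223 nuclei with at least 2 UMIs of border-macrophage markers had 204.2 CPM of P2ry12 and 269.1 CPM of Csf1r, but 5 UMIs each of Sall1 and Tmem119, equal to 6.01 CPM. Per 100 UMIs of the selection genes, the 9 genes together gave 36.6 UMIs in these nuclei, 67.1 in the 696 nuclei without a macrophage UMI and 70.6 in the microglia class. The mean doublet score of the cluster was 0.0906, against 0.00621 in microglia.

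The next comparison was aged AAV-EGFP against young AAV-EGFP, which sets the age groups side by side under the control vector. In the study's methods, aged mice came from the National Institute on Aging colony and young mice from Jackson Laboratories. Age and source therefore cannot be told apart, and a difference with age below is one between these groups. UMIs were summed over the microglial nuclei of each sample, and CPM from here on use totals scaled by the TMM method. P2ry12 rose and was the 1 member that passed the test. It stood at 832.0, 678.5 and 573.3 CPM in young AAV-EGFP replicates 1, 2 and 3, at 1286, 1333 and 1442 CPM in aged AAV-EGFP and at 971.8, 694.3 and 1111 CPM in aged AAV-B3GNT3. Every aged AAV-EGFP sample was above every young sample, and the aged AAV-B3GNT3 samples lay between, overlapping the young ones. The ageing difference was 1.94-fold (log2 fold change 0.96, SE 0.18, 95% interval 0.59 to 1.32, edgeR quasi-likelihood test with Benjamini-Hochberg adjustment over 7320 genes, adjusted p = 0.000932).

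All 9 members passed the filter on low counts. With age, 1 of 9 members passed the test, beside 11.1% of all 7320 genes, or 3.69% counting those that rose, so that the count of 1 does not set the members apart. Their median log2 fold change was 0.22, with 7 positive and 2 negative, against a median of -0.01 over all genes tested. The 5 selection genes had a median of 0.24 and 18 further microglia identity genes 0.21, so the members' median does not set them apart from these. Groups did not overlap for P2ry12 and Csf1r, both higher in the aged samples, beside 27.0% of all genes whose groups did not overlap in either direction. Siglech had a log2 fold change of 0.36 (95% interval 0.03 to 0.69) and an edgeR adjusted p of 0.164.

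**Figure D2:**
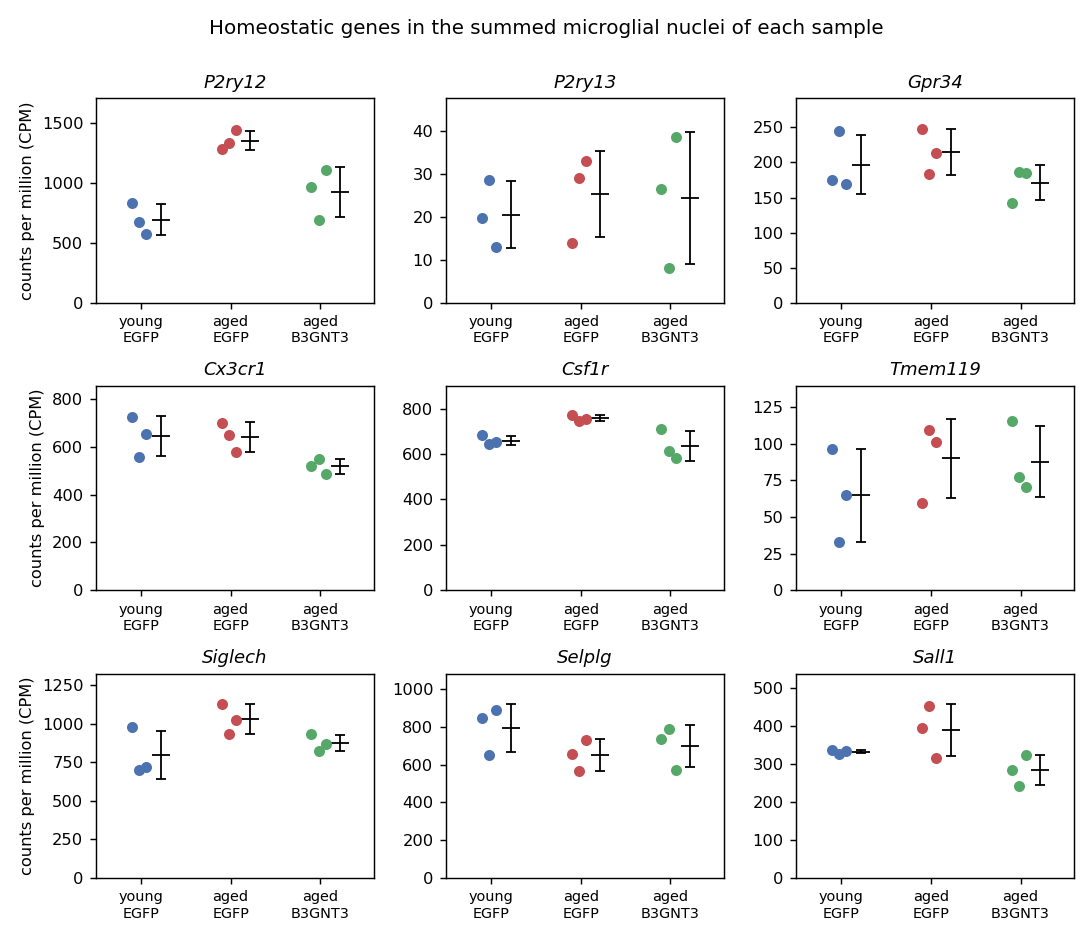
Level of each homeostatic gene in the microglia of each sample, in CPM with TMM scaling on a linear axis from 0, with points for the 3 samples of a group and a bar for mean and SD. P2ry12 lies at 1286 to 1442 CPM in aged AAV-EGFP, above the 573.3 to 832.0 CPM of young AAV-EGFP, while most other genes overlap.

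The remaining purine and lipid receptors had fewer UMIs. P2ry13 had 75 microglial UMIs in all and stood at 20.5 ± 7.81 CPM (SD, n = 3) in young AAV-EGFP, 25.3 ± 10.0 CPM in aged AAV-EGFP and 24.4 ± 15.4 CPM in aged AAV-B3GNT3. Its groups overlapped, and its 95% interval for ageing ran from -0.80 to 1.47 on the log2 scale, so a change as large as that of P2ry12 was not detectable at this depth. Gpr34 stood at 175.5, 245.2 and 169.4 CPM in young AAV-EGFP, at 248.1, 183.5 and 212.9 CPM in aged AAV-EGFP and at 142.3, 186.2 and 184.4 CPM in aged AAV-B3GNT3. The groups overlapped, and the log2 fold change with age was 0.13 with a 95% interval of -0.30 to 0.56.

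Of the chemokine and growth factor receptors, Cx3cr1 stood at 727.3, 559.9 and 655.8 CPM in young AAV-EGFP, at 702.4, 650.4 and 577.8 CPM in aged AAV-EGFP and at 520.9, 548.6 and 487.1 CPM in aged AAV-B3GNT3. The young and aged control samples overlapped, while the 3 B3GNT3 samples were the lowest 3 of the 9. With age its log2 fold change was -0.02 (95% interval -0.34 to 0.31), a value close enough to 0 that its sign turned in other settings. Csf1r stood at 682.0, 645.8 and 651.4 CPM in young AAV-EGFP, at 772.3, 746.9 and 752.7 CPM in aged AAV-EGFP and at 709.0, 611.3 and 582.7 CPM in aged AAV-B3GNT3. The aged control samples were all above the other 6, but the log2 fold change with age was 0.20 and the edgeR adjusted p was 0.462. The value was -0.03 with foreign RNA subtracted and -0.01 when totals were set by the selection genes, a scaling that moved the median of all genes to -0.22, and it stayed positive in the other 23 settings.

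The surface proteins and the transcription factor varied as follows. Tmem119 had 265 microglial UMIs and stood at 64.7 ± 31.8 CPM (SD, n = 3) in young AAV-EGFP, 90.1 ± 26.9 CPM in aged AAV-EGFP and 87.7 ± 24.5 CPM in aged AAV-B3GNT3, with groups that overlapped. Siglech stood at 979.1, 703.0 and 716.6 CPM in young AAV-EGFP, at 1129, 936.9 and 1026 CPM in aged AAV-EGFP and at 930.8, 821.8 and 871.8 CPM in aged AAV-B3GNT3. Young replicate 1 was the sample of its group that overlapped the aged ones. Siglech was called with age in 1 of 25 other settings, the fit without that sample (edgeR adjusted p = 0.0464), and over the 25 its adjusted p reached 0.768. Selplg stood at 795.4 ± 128.0 CPM in young AAV-EGFP, 650.1 ± 83.5 CPM in aged AAV-EGFP and 698.1 ± 112.8 CPM in aged AAV-B3GNT3, and its log2 fold change with age of -0.29 was the lowest of the 9. Sall1 stood at 336.8, 327.0 and 334.4 CPM in young AAV-EGFP, at 394.9, 454.0 and 316.8 CPM in aged AAV-EGFP and at 284.5, 242.9 and 323.2 CPM in aged AAV-B3GNT3. The young samples of Sall1 were close together, and the aged control samples lay on both sides of them.

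The same difference in P2ry12 was seen in the share of nuclei with at least 1 UMI of it. With every nucleus thinned to 1000 UMIs, which left out 14 young AAV-EGFP, 132 aged AAV-EGFP and 36 aged AAV-B3GNT3 nuclei, P2ry12 was found in 41.8% ± 2.72 (SD, n = 3) of young AAV-EGFP microglia and in 66.8% ± 2.99 of aged AAV-EGFP microglia. The sample values were 39.0 to 44.4% and 63.5 to 69.3%, with no overlap, and aged AAV-B3GNT3 samples ran from 44.0 to 62.4% around a mean of 54.1%. Without thinning the means were 62.6, 76.8 and 69.4%. Excitatory neurons, a class that should lack the gene, were thinned in the same way. Only the first 1000 such nuclei of each sample were used, and the means were 1.30, 2.40 and 1.13%. Csf1r was in 39.6% of thinned young AAV-EGFP microglia, 50% of aged AAV-EGFP and 45.5% of aged AAV-B3GNT3, with unthinned means of 65.5, 62.3 and 64.0%. The order of its groups thus changed with thinning, which set equal depth and also left out nuclei under 1000 UMIs. Those effects were not separated. The share for Csf1r in those thinned excitatory neurons was 0.10, 0.03 and 0.07%.

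**Figure D3:**
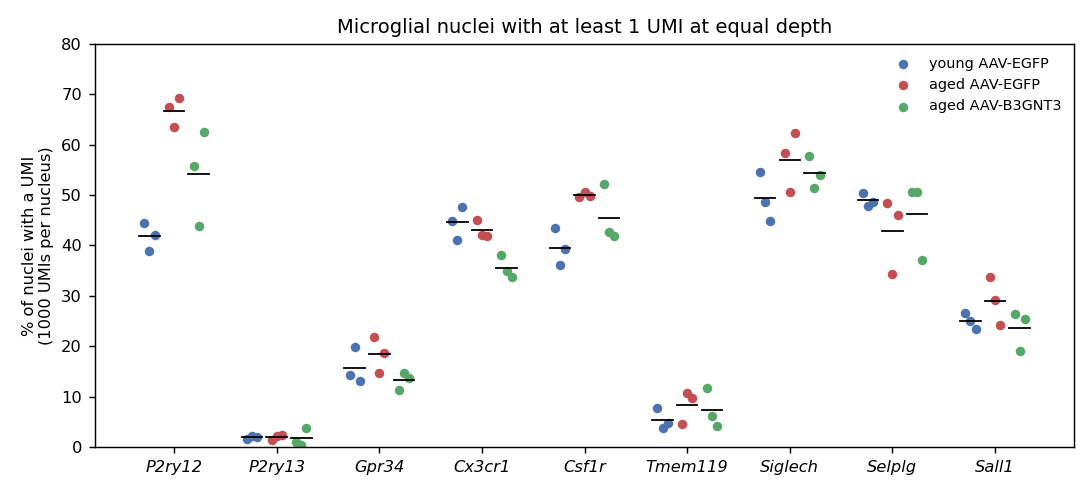
Percent of microglial nuclei with at least 1 UMI of each homeostatic gene after each nucleus was thinned to 1000 UMIs, with 1 point per sample and a line at the group mean. P2ry12 runs from 39.0 to 44.4% in young AAV-EGFP and from 63.5 to 69.3% in aged AAV-EGFP, and P2ry13 stays under 4% in every sample.

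Summed markers of oligodendrocytes and excitatory neurons in the microglial nuclei were lower in aged AAV-EGFP than in young AAV-EGFP with no overlap between samples, and those of astrocytes overlapped. The 6 oligodendrocyte markers summed to 710.0 to 864.2 CPM per sample in young AAV-EGFP, 429.2 to 675.2 CPM in aged AAV-EGFP and 653.5 to 737.9 CPM in aged AAV-B3GNT3, on unscaled totals. The 6 excitatory neuron markers summed to 345.7 to 371.5, 153.6 to 313.3 and 269.1 to 321.7 CPM in that order of groups, and the 5 astrocyte markers to 713.7 to 1139, 540.5 to 821.2 and 631.5 to 849.8 CPM. Of the markers tested, 1 of 6 for oligodendrocytes, 2 of 4 for excitatory neurons and 2 of 3 for astrocytes fell with age in microglia, beside 540 of all 7320 genes tested. Mag, a myelin protein, and Slc1a3, an astrocyte glutamate transporter, had log2 fold changes of 0.49 and 0.35 with age, with edgeR adjusted p of 0.531 and 0.397. Slc1a3 stood at 417.9 CPM in the pooled microglia, above the 240.8 CPM of all nuclei kept, and is part of the astrocyte sum. That sum therefore does not measure foreign astrocyte RNA alone. The 6 border-macrophage markers summed to at most 15.2 CPM in any sample, with 2 to 5 of them at 0.

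Estimated from such markers, RNA from other classes was 46.09, 48.44 and 57.08% of microglial UMIs in the young AAV-EGFP replicates, 35.99, 49.38 and 35.53% in aged AAV-EGFP and 41.87, 42.84 and 45.60% in aged AAV-B3GNT3. The estimate counts every UMI of these markers as foreign, also those of Slc1a3, which was higher in microglia than over all nuclei. The percentages, and the subtraction that uses them, may therefore be too high. The subtraction, which could not take a gene below 0 counts, removed 23.5 to 43.6% of microglial UMIs per sample, less than the estimate in each of the 9. With that share subtracted, the log2 fold change of P2ry12 with age was 0.74 and its edgeR adjusted p 0.0765, with 24 genes called in all. Per 100 UMIs of the 5 selection genes, P2ry12 gave 14.5, 11.4 and 9.01 UMIs in young AAV-EGFP, 19.3, 19.1 and 20.4 in aged AAV-EGFP and 14.9, 10.8 and 18.9 in aged AAV-B3GNT3. All 3 aged control samples were above the young ones on this scale too, where the log2 fold change was 0.75 (edgeR adjusted p = 0.0134) and the median of all genes moved to -0.22. The part of foreign RNA in the size of the difference was not tested further.

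**Figure D4:**
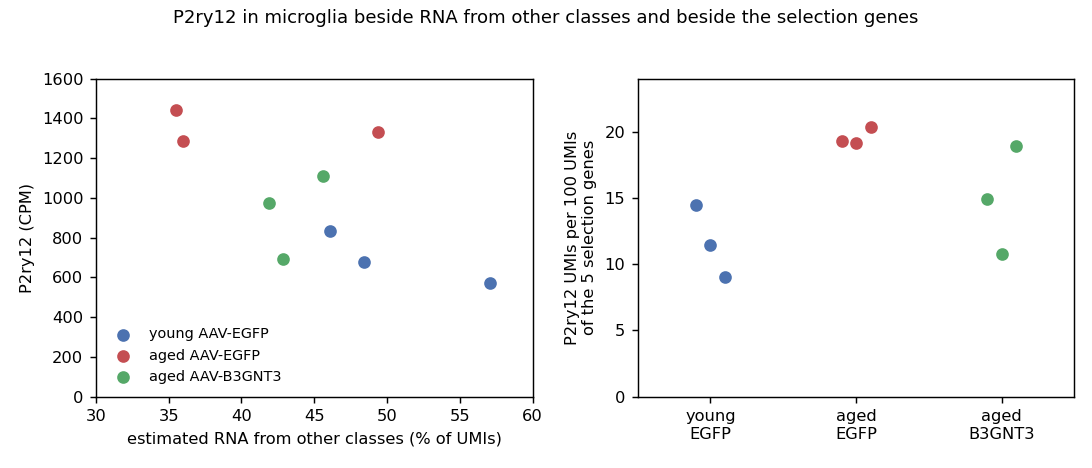
Left, P2ry12 in microglia (CPM with TMM scaling) against the estimated percent of microglial UMIs from other classes, with 1 point per sample. Right, P2ry12 UMIs per 100 UMIs of the 5 selection genes, where aged AAV-EGFP lies at 19.1 to 20.4 and young AAV-EGFP at 9.01 to 14.5.

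The two-sided test of P2ry12 for age lost its call under 4 of 25 other settings, while its log2 fold change stayed between 0.74 and 1.13 in all 25. Its edgeR adjusted p was 0.126 with no removal of doublets, 0.320 with microglia chosen by UMIs in 3 of the 5 selection genes, 0.0765 with foreign RNA subtracted and 0.261 with the macrophage-marked cluster added, and the genes called in all were 4, 0, 24 and 0 there.

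The treatment comparison set aged AAV-B3GNT3 against aged AAV-EGFP, to ask whether endothelial B3GNT3 changed the homeostatic genes of old microglia. It shares the aged AAV-EGFP samples with the ageing comparison, so the values of both are given side by side and opposite signs are not independent. None of the 9 members passed the test, beside 3.93% of all genes, and 2 of 9 had an unadjusted p under 0.05, beside 1231 of 7320 genes. P2ry12 had the lowest log2 fold change at -0.55 (SE 0.17, 95% interval -0.91 to -0.20, edgeR adjusted p = 0.0743), with all 3 B3GNT3 samples below the aged controls. The edgeR adjusted p was 0.0283 without aged AAV-EGFP replicate 1, 0.426 without aged AAV-B3GNT3 replicate 2, 0.0485 with no filter on low counts and 0.0390 with nuclei thinned to 1000 UMIs. Over the 25 other settings P2ry12 was called in 4, and its log2 fold change ran from -0.70 to -0.28. The adjusted p, from edgeR or DESeq2, reached 0.857.

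The log2 fold changes with treatment were -0.45 for Sall1 (95% interval -0.81 to -0.09, edgeR adjusted p = 0.165), -0.32 for Gpr34, -0.31 for Cx3cr1, -0.26 for Csf1r and -0.24 for Siglech. For P2ry13 and Tmem119 they were -0.12 and -0.06, both with intervals that span at least -0.67 to 0.54, and for Selplg 0.10. In all, 8 of 9 were negative, with a median of -0.26 against 0.02 over all genes. The 5 selection genes had a median of -0.12 and 18 further microglia identity genes -0.20. P2ry12, Cx3cr1, Csf1r and Siglech had all 3 treated samples below the 3 aged controls, and the groups of 20.3% of all genes did not overlap in either direction. The sign of P2ry13, Tmem119, Cx3cr1, Csf1r, Siglech, Selplg and Gpr34 turned in at least 1 other setting, while P2ry12 and Sall1 stayed negative in the 25 run. Their size did not hold, with -0.63 to -0.05 for Sall1 and -0.70 to -0.28 for P2ry12.

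**Figure D5:**
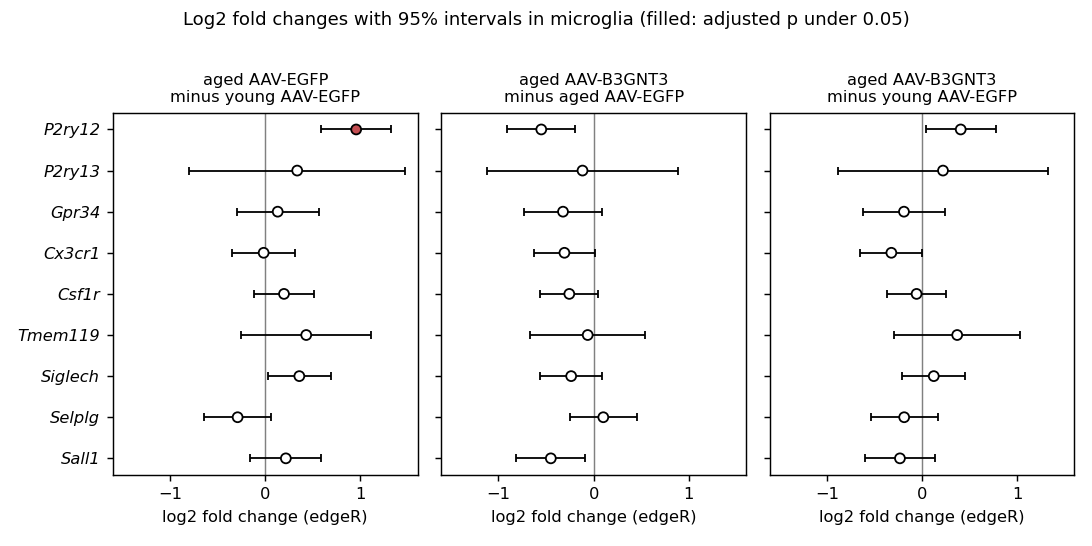
Log2 fold change (edgeR) of each homeostatic gene in microglia with its 95% interval, for the 3 comparisons, with a filled point where the adjusted p was under 0.05. P2ry12 with age is the 1 filled point, at 0.96, and 8 of 9 points lie below 0 for treatment.

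The last comparison set aged AAV-B3GNT3 against young AAV-EGFP, to see how far the treated mice stood from young ones, which also differed in source. None of the 9 members passed, and 0 of 7320 genes did in edgeR (0.00%), although 759 had an unadjusted p under 0.05 and DESeq2 called 16. P2ry12 was at 0.41 on the log2 scale (95% interval 0.04 to 0.77, edgeR adjusted p = 0.420), and its groups overlapped. Cx3cr1 at -0.32 and Sall1 at -0.23 had every treated sample below every young one, and the groups of 17.7% of all genes did not overlap in either direction. The median of the members was -0.06, against -0.02 over all genes.

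Further microglia identity genes, a list of 18 that were all tested, were set beside the members. With age, Cd33, a sialic-acid-binding inhibitory receptor, was the 1 that rose, from 235.8 ± 42.6 CPM (SD, n = 3) to 451.5 ± 83.3 CPM (log2 fold change 0.93, edgeR adjusted p = 0.00370), with 322.5 ± 70.4 CPM in aged AAV-B3GNT3. This call was lost under the same 4 of 25 settings as that of P2ry12, where the edgeR adjusted p was 0.126 to 0.302. The 2 with most counts were Tgfbr1, a receptor of the cytokine that maintains microglial identity, and Lyn, a Src-family kinase. Tgfbr1 had log2 fold changes of 0.00 for age and -0.07 for treatment, and Lyn had 0.23 and -0.32 (edgeR adjusted p of 0.322 and 0.209), with the aged AAV-EGFP samples of Lyn above those of both other groups. The median of the list was 0.21 for age, -0.20 for treatment and -0.11 for treated aged against young, with 0 of 18 called in the latter 2 comparisons.

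Genes of the disease state moved with age in the same summed microglia class, beside P2ry12. Whether single nuclei held both was not tested. Of 9 tested of 18, 5 rose: Fth1, the ferritin heavy chain, by 1.51 on the log2 scale, Apoe, a lipid carrier, by 1.36, Cd9 by 1.30, Tyrobp, the adaptor through which Siglec-H signals, by 1.02, and Ctsd, a lysosomal protease, by 0.68. Over all genes, 11.1% were called with age and 3.69% rose. With treatment 2 of the 9 fell, Fth1 at -1.77 and Apoe at -1.07, beside 3.93% of all genes called, and none passed for treated aged against young. The age calls of Fth1, Apoe and Cd9 were also lost under those 4 settings, where their edgeR adjusted p ran from 0.0555 to 0.220, and those of Tyrobp and Ctsd under 11 and 16 of 25. Tyrobp was not called without young AAV-EGFP replicate 1, 2 or 3 or aged AAV-EGFP replicate 3 (adjusted p of 0.0750 to 0.145), and Ctsd without any 1 of 7 of the 9 samples, all but aged AAV-EGFP replicates 1 and 3 (0.0591 to 0.214). For treatment, Fth1 and Apoe lost their calls under those 4 settings and without aged AAV-B3GNT3 replicate 2 (0.0538 and 0.111). RNA estimated to come from other classes, 35.53 to 57.08% of microglial UMIs over the samples, was highest on average in young AAV-EGFP, and its part in these differences was not tested further. The 5 selection genes had 0 called in each comparison, with medians of 0.24, -0.12 and 0.10.

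Ligands and partners of the members were read in microglia and in the classes that make them. In microglia, 8 of 14 were tested and Tyrobp was the 1 called with age, from 41.7 ± 4.34 CPM (SD, n = 3) to 83.1 ± 17.1 CPM (edgeR adjusted p = 0.0339). Csf1, a ligand of CSF1R, rose with age in oligodendrocytes, where 20.8% of 13242 genes passed. It stood at 59.7, 50.7 and 61.8 CPM in young AAV-EGFP, at 85.1, 86.5 and 87.6 CPM in aged AAV-EGFP and at 79.8, 75.2 and 71.2 CPM in aged AAV-B3GNT3. The 3 groups did not overlap, and the log2 fold change with age was 0.59 (SE 0.12, edgeR adjusted p = 0.00597), with a value of -0.20 (adjusted p = 0.302) for treatment. That call for age was kept in each of the 12 other settings run.

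Csf1 was also higher in aged AAV-B3GNT3 than in young AAV-EGFP in astrocytes, at 35.6 ± 2.06 against 20.3 ± 2.23 CPM (SD, n = 3; log2 fold change 0.80, edgeR adjusted p = 0.0291), where 2.70% of genes passed. The call was lost without young AAV-EGFP replicate 2 or 3 or aged AAV-B3GNT3 replicate 1 or 2, with adjusted p of 0.0682 to 0.140. In excitatory neurons, where 3.74% passed, it had a log2 fold change of 0.70 (edgeR adjusted p = 0.0481), lost in 7 of the 9 fits that left out 1 sample and at an adjusted p of 0.0821 with the replicate block. Il34, the other CSF1R ligand, stood in pericytes at 457.7 CPM in young AAV-EGFP, at 446.9 CPM in aged AAV-EGFP and at 697.1 CPM in aged AAV-B3GNT3 (treatment log2 fold change 0.65, edgeR adjusted p = 0.217). Cx3cl1, the ligand of CX3CR1, stood at 98.6, 69.8 and 79.2 CPM in endothelial nuclei and at 58.9, 52.3 and 56.7 CPM in excitatory neurons, and passed nowhere. Nt5e, which makes adenosine from AMP, rose with age in oligodendrocytes (log2 fold change 1.06, adjusted p = 0.0231), and Smad3, which carries TGF-beta signals, fell in excitatory neurons (-1.02, adjusted p = 0.00961), where 13.9% of genes passed. Of 48 such tests per comparison, 3 passed for age, 0 for treatment and 2 for treated aged against young. Without young AAV-EGFP replicate 3 only 1 passed for age, Csf1 in oligodendrocytes, so the calls of Nt5e and Smad3 were lost.

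Outside microglia, none of the 9 genes passed a test in a class where it was tested. The share of all genes that passed differed by class and comparison. It was 20.8% in oligodendrocytes and 13.9% in excitatory neurons for age. For treated aged against young it was 3.74% in excitatory neurons and 2.70% in astrocytes. In excitatory neurons P2ry12 stood at 7.83, 20.01 and 15.4 CPM in young AAV-EGFP, 21.8, 20.4 and 17.5 CPM in aged AAV-EGFP and 8.23, 7.28 and 16.0 CPM in aged AAV-B3GNT3, on unscaled totals. Young replicate 1 was the lowest young sample in neurons and the highest in microglia. The group means in neurons were 14.4 CPM in young AAV-EGFP, 19.9 CPM in aged AAV-EGFP and 10.5 CPM in aged AAV-B3GNT3, with the highest in the same group as in microglia. Whether RNA from microglia contributed to the neuronal level was not tested. Med12l, the gene around P2ry12, stood at 272.6 to 279.4, 224.5 to 258.2 and 274.2 to 280.7 CPM in the same neurons, lowest in the group where P2ry12 was highest. In oligodendrocytes Med12l averaged 56.7 CPM and P2ry12 5.17 CPM over the samples. Excitatory and inhibitory neurons, oligodendrocyte precursors and astrocytes had Med12l at 264.6, 240.9, 289.1 and 227.4 CPM. P2ry12 there was 14.95, 14.3, 14.7 and 23.3 CPM in that order. Whether reads of Med12l contributed to P2ry12 was not tested. In microglia Med12l had log2 fold changes of 0.42 with age and -0.47 with treatment (edgeR adjusted p of 0.211 and 0.206), the same signs as P2ry12, and stood at 217.0 to 463.8 CPM over the samples.

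The members did not vary as 1 block across the 9 samples. As a description over samples that share these groups, the pairs with the highest Pearson's r were P2ry12 with Siglech at 0.83 and Csf1r with Siglech at 0.69, and the lowest were Tmem119 with Gpr34 at -0.68 and P2ry12 with Selplg at -0.61. The mean of the standardised log2 levels over the 9 genes was 0.51 to 0.60 in aged AAV-EGFP samples, -0.47 to 0.32 in young AAV-EGFP and -0.69 to -0.11 in aged AAV-B3GNT3. Csf1r followed this mean most closely (r = 0.89) and Selplg least (r = -0.19), each being part of it. Of 1718 genes compared, the non-members nearest to the mean were Slc9a9 at r = 0.98, Nav2 at 0.94, and Snx13, Atp8a2 and Maf at 0.92, and none of these 5 passed a test in microglia. Together the 9 genes made up 0.352 to 0.428% of microglial UMIs in young AAV-EGFP, 0.473 to 0.4997% in aged AAV-EGFP and 0.374 to 0.432% in aged AAV-B3GNT3. The 5 selection genes summed to 5240 to 5812, 6240 to 6819 and 5591 to 6355 CPM in that order, on unscaled totals. Per 100 UMIs of those genes, the 9 gave 81.7, 65.3 and 64.0 UMIs in young AAV-EGFP. Aged AAV-EGFP gave 79.1, 71.9 and 73.3 and aged AAV-B3GNT3 68.0, 61.8 and 72.3, so the groups overlapped on this scale.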

How the data were processed

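Single-nucleus RNA was counted in 9 samples. The deposited matrices hold raw counts of UMIs for each gene in each nucleus, made by the authors with Cell Ranger on mm10. The submitters' processing notes name version 4.0.0 and the matrix headers 7.2.0. Ages, sex, strain and source of the mice are from the study's methods. A legend of the study gives 3 mice per group, but the labels do not say that samples are separate mice. If they are not, p-values measure only the spread between these samples.

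Of 77823 barcodes, 74895 had 200 to 5000 genes and no more than 10% of UMIs from mitochondria. Of these, 4671 likely doublets, set at 0.8% per 1000 barcodes, were removed. The 9 genes were left out of doublet scoring and clustering. Nuclei were clustered with scanpy 1.11.5 (2000 variable genes, 15 components, 20 neighbours, Leiden resolution 0.3). A cluster was named when at least 3 fixed markers reached 2 times the median over clusters and 10% of nuclei. Clusters that also carried markers of a rival class, or had few UMIs, stayed unnamed. Counts were summed per sample and class, filtered (filterByExpr, minimum count 10), scaled by TMM and tested with edgeR 4.0.16 (quasi-likelihood, two-sided, 9 samples in 1 fit, Benjamini-Hochberg over all genes of a class, threshold 0.05), with DESeq2 1.42.0 as an alternative. CPM were computed here from these counts. Free RNA was estimated from markers of neurons, oligodendrocytes and astrocytes. Intervals cover the spread between samples. The steps were tested on simulated data. The chi-square per degree of freedom between replicates was 1.55 to 3.46, so no pair of libraries was treated as 1.

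The 9 members and the lists were chosen with earlier results of these data known. All members were named, and from each list the genes called, at most 4 per comparison by size, or otherwise the 2 with most counts. Ctsd and Nt5e, Smad3, Il34 and Cx3cl1 were named in addition, after their values were seen. Replicate numbers did not pair samples (correlations of deviations from -0.14 to 0.12).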

Additional observations from a re-analysis of the deposited data

How the results depend on the processing

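P2ry12 kept its direction in all 3 comparisons under each of the 25 other settings. So did Sall1 with age and treatment, and Siglech, Tmem119 and Selplg with age. Cx3cr1, Tmem119 and Siglech also did for treated aged against young. P2ry13 kept its direction with age in 20 settings and for treated aged against young in 21, those where it was tested. With age, 0 members were called with no doublet removal, with UMIs in 3 of 5 selection genes, with free RNA subtracted and with the macrophage-marked cluster added, and 1 to 2 when each replicate was left out, 2 without young AAV-EGFP replicate 1. For treatment 1 was called, P2ry12, with no filter on low counts, without nuclei of over 2 times the median UMIs and with thinned nuclei, and 0 to 1 when each replicate was left out. For treated aged against young 0 were called throughout. Genes called in all were 810 for age and 288 for treatment, but 457 and 126 with DESeq2, 417 and 87 without aged AAV-EGFP replicate 3, 4 and 2 with no doublet removal, 24 and 6 with free RNA subtracted, and 0 and 0 with UMIs in 3 of 5 selection genes or the macrophage-marked cluster added. They were 495 for age without young AAV-EGFP replicate 3, and for treatment 517 and 151 without aged AAV-EGFP replicates 1 and 2, 11 and 189 without aged AAV-B3GNT3 replicates 2 and 3 and 157 with only the groups compared. For treated aged against young, against 0 they were 67 with no filter on low counts, 63 with only the groups compared, 50 and 24 without aged AAV-EGFP replicates 1 and 3 and 16 with DESeq2. The causes of these moves were not tested.

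With the replicate block, 1 member and 729 genes were called for age, 0 and 242 for treatment and 0 and 0 for treated aged against young. The block moved the ligand and partner calls to 1 for treatment and 1 for treated aged against young, where it changed the call of Csf1 in excitatory neurons. Leaving out each sample moved those calls to 1 to 9 for age (9 with aged AAV-EGFP replicate 1 out and 1 with young AAV-EGFP replicate 3 out), 0 to 3 for treatment (3 without aged AAV-B3GNT3 replicate 3) and 0 to 2 for treated aged against young, and DESeq2 gave 2 for treatment.

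The signs that turned were of values that were not called, and the cause was not tested. With age, Cx3cr1 was 0.0061 with DESeq2, 0.0238 with RLE size factors, 0.0493 with no TMM factor, 0.0046 with no upper limit on genes, 0.0186 with finer clustering, 0.0264 with only the groups compared, 0.0108 without high-UMI nuclei, 0.0316 with thinned nuclei and -0.12 to 0.13 without each replicate. Csf1r and Gpr34 were -0.0281 and -0.11 with free RNA subtracted and -0.0052 and -0.0734 scaled to the selection genes. For treatment with no doublet removal, P2ry13 was 0.16, Csf1r 0.0242 and Siglech 0.0280. With UMIs in 3 of 5 selection genes P2ry13 was 0.19, Tmem119 0.20, Cx3cr1 0.0886, Csf1r 0.10, Siglech 0.15 and Gpr34 0.0290, and with the macrophage-marked cluster added P2ry13 was 0.27, Tmem119 0.10, Cx3cr1 0.0085, Csf1r 0.0565 and Siglech 0.10. Scaled to the selection genes P2ry13 was 0.0339 and Tmem119 0.0770, and with free RNA subtracted Tmem119 was 0.0925. Without each replicate P2ry13 ran from -0.41 to 0.33, Tmem119 from -0.30 to 0.0701 and Selplg from -0.0197 to 0.23. For treated aged against young, Csf1r was 0.0189 with no TMM factor, 0.21 with no doublet removal, 0.23 with UMIs in 3 of 5 selection genes, 0.27 with the cluster added and 0.14 with thinned nuclei. Sall1 was 0.0761 with no doublet removal, and with UMIs in 3 of 5 selection genes Sall1 was 0.0475 and Gpr34 0.0667. With the cluster added Sall1 was 0.16, Selplg 0.0818 and Gpr34 0.10. The settings on high-UMI nuclei, the added cluster, thinning, selection-gene scaling and ligands were chosen after seeing the data. Depth limits P2ry13 and Tmem119 most, with 75 and 265 microglial UMIs in all.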

Other observations

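Gm33858, an antisense RNA gene on chromosome 9 (GRCm38, 120068996 to 120070622, plus strand) that overlaps the start of Cx3cr1, was chosen after its values were seen. It had 61 UMIs in microglia and stood at 14.2, 0 and 0 CPM in young AAV-EGFP replicates 1, 2 and 3, at 28.0, 48.3 and 35.5 CPM in aged AAV-EGFP and at 9.65, 12.2 and 20.5 CPM in aged AAV-B3GNT3. All aged control samples were above the other 6, and Cx3cr1 itself had a log2 fold change of -0.02 with age. Gm33858 passed the filter on low counts only through the aged AAV-EGFP samples, where it was highest. The separation of groups and the tests (edgeR adjusted p of 0.0134 for age and 0.133 for treatment) were therefore favoured in advance. No conclusion is drawn from them. The age call was lost under 4 of the 19 other settings where Gm33858 was tested, without young AAV-EGFP replicate 2 or 3, without aged AAV-EGFP replicate 2 and with no doublet removal (adjusted p of 0.0574 to 0.0763). Whether the counting used the strand is not given in the sources used here, and without strand reads of Gm33858 and Cx3cr1 could not be told apart where they overlap. In excitatory neurons, oligodendrocytes and astrocytes Gm33858 was at most 0.444 CPM in any sample. Of the 5 genes most confined to microglia over the 8 named classes, 2 are given, chosen after their values were seen. Cd48, a cell-surface protein of blood-derived and myeloid cells, rose with age by 1.29 on the log2 scale and fell by 0.84 with treatment (edgeR adjusted p of 0.00249 and 0.0409), with 39.1 to 48.1 CPM in young AAV-EGFP, 96.6 to 124.2 CPM in aged AAV-EGFP and 55.5 to 64.8 CPM in aged AAV-B3GNT3. Its age call was lost under 4 of 25 other settings and its treatment call under 16 of 25, among them leaving out any 1 of 7 of the 9 samples, all but young and aged AAV-EGFP replicates 1 (adjusted p of 0.0547 to 0.186). Gm2245 had log2 fold changes of 0.68 with age and -1.54 with treatment (edgeR adjusted p of 0.215 and 0.0127), and the latter call was lost under 5 of 25, one of them without aged AAV-B3GNT3 replicate 2 (0.116). Over all genes 11.1% were called with age and 3.93% with treatment.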
